A study of Mus musculus with 16 samples.

Results

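Genes that take up, store and oxidise fatty acids were followed in the left ventricle of mice under pressure overload. The set held 39 named genes, and a gene was read from probe sets (groups of short oligonucleotides for 1 transcript) whose platform annotation gives exactly 1 gene symbol, that of the gene. By this rule 36 of the 39 genes were measured, on 59 probe sets. Cpt1b lay only on a probe set annotated with several symbols, and Acsl1 and Ucp2 were on no annotated probe set, so these 3 genes were not analysed here. The array as a whole carried 12393 genes with such a probe set, and 8272 of them, among them all 36 fatty acid genes, passed a filter on dim signals and were tested.

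The mice were of the C57BL/6J strain and 12-14 weeks old, and each of the 16 arrays held left ventricular RNA of 1 animal. The 4 groups of 4 arrays were sham-operated males, males with transverse aortic constriction (TAC), sham-operated females and females with TAC. TAC narrows the aortic arch, so that the ventricle pumps against a raised pressure, and RNA was taken 14 days after surgery. TAC was done under ketamine and isoflurane with buprenorphine as pain relief, and whether the sham animals received the same drugs is not stated in the labels. The RNA came from whole ventricular tissue, so fewer cells of a type and less RNA per cell cannot be told apart. Arrays are named by group and replicate number, and values run in the order sham 1, 2, 3, 4, male TAC 1, 2, 4, 5 and female TAC 1, 2, 3, 5.

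The adult heart draws most of its energy from long-chain fatty acids. Lipoprotein lipase frees them from circulating triglyceride, CD36 and transport proteins carry them into the cardiomyocyte, and they are either stored in lipid droplets or linked to carnitine and moved into mitochondria. There β-oxidation shortens the chain in repeated cycles of dehydrogenation, hydration, a second dehydrogenation and thiolysis, and the electron transfer flavoprotein passes electrons of the first step to the respiratory chain. Many of these genes are known targets of the nuclear receptor PPARα and its coactivator PGC-1α.

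After TAC, most of these genes were lower in both sexes and none was called higher. In males 27 of the 36 genes fell and 0 rose, where 7.77% of all genes tested fell and 8.1% rose. In females 24 of 36 fell and 0 rose, where 6.69% of all genes fell and 6.37% rose. "Fell" and "rose" stand for an adjusted p below 0.05 in limma, with Benjamini-Hochberg adjustment over all 13576 probe sets tested. Each gene was read on its probe set of highest mean. The median difference of mean log2(signal + 16), TAC minus sham, was -0.61 over the 36 genes in males and -0.51 in females, against -0.01 over all genes tested in each sex. Differences ran from -1.65 to 0.35 in males and from -1.49 to 0.33 in females, and 35 and 34 of the 36 were below 0. Averaged over the sexes, 31 of 36 genes fell, where 13.1% of all genes did, and 0 rose, where 13.4% did. The 31 include Acot1, whose probe set passed the filter on dim signals through its brighter sham arrays.

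The same 22 genes fell in both sexes, where 4.1% of all genes tested did. Pnpla2, Dgat2, Crat, Acadl and Hadh passed the threshold in males alone and Lpl and Cpt1a in females alone, which does not show that they differed between the sexes. Fabp3, Fabp4, Dgat1, Slc25a20, Acads, Acot1 and Acot2 passed in neither. For 27 genes every male TAC array lay below every male sham array (9.04% of all genes tested did so), and for 24 genes every female TAC array lay below every female sham array (9.53% of all genes). For 21 genes this held in both sexes, as it did for 4.29% of all genes tested. The plot by step shows each gene's difference with its interval.

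**Figure D1:**
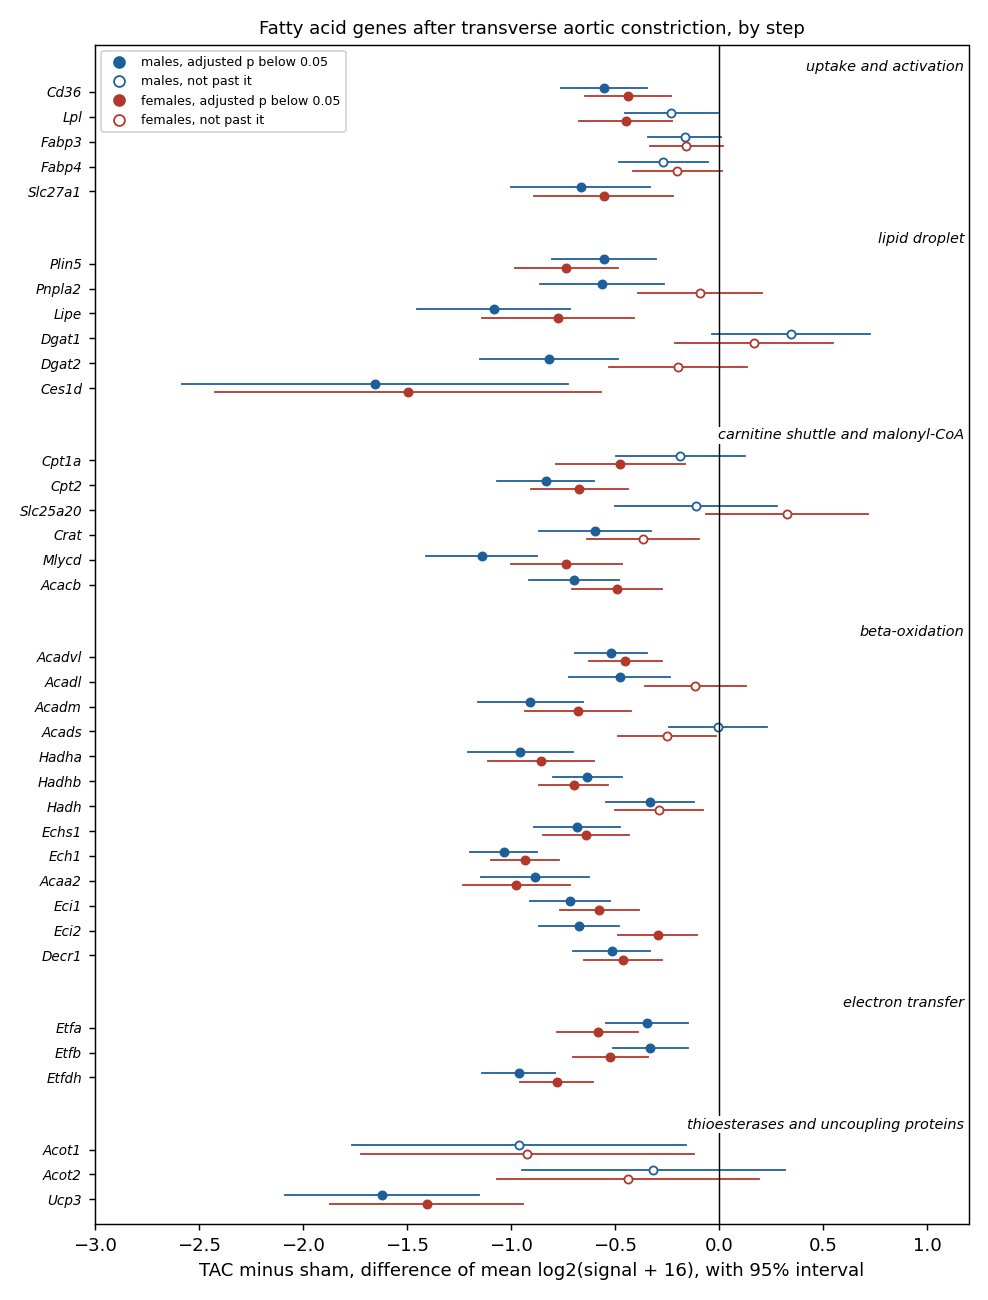
Difference of mean log2(signal + 16) between TAC and sham arrays for each of the 36 measured genes (horizontal axis, log2 units), grouped by step, with males in blue, females in red, n = 4 arrays per group and lines for the 95% interval of the limma fit. Filled points passed an adjusted p below 0.05: 27 in males and 24 in females, all to the left of 0.

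The falls were spread over every step. In males 12 of 13 β-oxidation genes, 3 of 3 electron transfer genes, 5 of 6 lipid droplet genes, 4 of 6 genes of the carnitine shuttle and malonyl-CoA, 2 of 5 uptake genes and 1 of 3 thioesterase and uncoupling genes fell. The same steps gave 10 of 13, 3 of 3, 3 of 6, 4 of 6, 3 of 5 and 1 of 3 in females. The step medians in males were -0.67, -0.35, -0.69, -0.65, -0.27 and -0.96, in that order, and in females -0.58, -0.58, -0.46, -0.48, -0.44 and -0.92. The medians of the last step, -0.96 and -0.92, were the values of Acot1, which passed in neither sex. Most Acot1 signals after TAC lay under the limit of the filter on dim probe sets. Of that step only Ucp3 fell in either sex. No test compared one step with another.

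A measure of RNA quality, the Gapdh control ratio, moved with the operation on the same arrays. Each array carries control probe sets at the 3' and the 5' end of Gapdh. The log2 of their signal ratio, 3' over 5', lay between -0.26 and -0.12 in sham males, against 0.0052 to 0.22 in males with TAC. In females it lay between -0.35 and -0.12 in shams, against -0.062 to 0.036 with TAC. Groups did not overlap in either sex (exact permutation p = 0.0286, 2-sided, the smallest that 4 against 4 arrays allow; adjusted 0.0429 over 6 tests). With this ratio as a covariate, 9 of 36 genes fell in males and 14 in females, 7 of them in both: Cd36, Lipe, Hadhb, Hadh, Ech1, Eci1 and Etfdh. Of all 13576 probe sets tested, 249 fell in males and 326 in females in that fit, against 1327 and 1168 without the covariate. The median difference over the 36 genes was then -0.54 in males and -0.49 in females, and 30 and 34 genes were below 0. The actin control ratio, 3' over 5', was higher with TAC in females (log2 difference 0.33, exact permutation p = 0.0286, adjusted 0.0429) and did not pass in males (0.24, exact permutation p = 0.114), where the groups overlapped. The 5' signal of the 18S control was lower with TAC in females (log2 difference -1.77, exact permutation p = 0.0286, adjusted 0.0429) and did not pass in males (-3.03, exact permutation p = 0.0571), where male TAC 5 lay among the shams. With the 18S signal as the covariate 23 and 22 genes fell, where 570 and 869 of the 13576 probe sets did. Scaling matters to the balance of calls as well. Among all probe sets called, 45.2% were higher in males and 42.9% in females, and with every array centred on its median signal these shares were 54.7% and 64.4%, since centring raised all differences by 0.06 and 0.12 at the median (log2). The 36 genes then had medians of -0.56 and -0.39, and 26 and 20 of them fell, where 1031 and 733 of the 13576 probe sets did.

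Markers of some cell types moved too, while those of endothelium mostly did not and those of adipocytes were mostly too dim to test. Among all genes tested, 7.77% fell and 8.1% rose in males, and 6.69% fell and 6.37% rose in females. Of 12 cardiomyocyte markers, 5 fell in males and 8 in females (medians -0.28 and -0.35), and their summed signal ran from 402620 to 480040 in sham males, 338910 to 410320 in males with TAC, 412390 to 443530 in sham females and 298310 to 378120 in females with TAC. Of 9 tested macrophage markers, 5 rose in males and 2 in females (medians 0.52 and 0.32), and the summed signal of the 10 measured ran from 9081 to 12947, 13932 to 14971, 9340 to 10437 and 11436 to 16968 in the same order of groups. Of 9 fibroblast markers, 5 rose in males and 3 in females (medians 0.66 and -0.13), with sums of 19200 to 22790, 30793 to 48906, 22088 to 26744 and 29465 to 40572. The 3 that rose in females were the collagen genes Col1a1, Col1a2 and Col3a1. Female differences of Pdgfra, Dcn, Lum, Tcf21 and Fbln1 were below 0 and did not pass. Of 10 endothelial markers, 1 rose in each sex and 0 fell (medians -0.02 and -0.04), with sums of 8954 to 11151, 8616 to 11062, 10036 to 11009 and 10078 to 11772. Adipocytes share Lpl, Fabp4, Lipe, Pnpla2 and Dgat2 with the heart. Of 8 measured adipocyte markers only Retn and Cidea passed the signal filter, 0 of these 2 were called in either sex, and Adipoq, which defines that cell type, had signals of 5.30 to 97.9. Averaged over the sexes, Cidea rose (0.35, limma adjusted p = 0.0269), where 13.4% of all genes tested did, and Retn did not pass (-0.17). The adipocyte sums ran from 1275 to 1589, 1392 to 1844, 1074 to 1621 and 1286 to 1691. The part of these markers in the falls below was not tested, and RNA quality entered only through the 2 covariate fits. Since the Gapdh ratio did not overlap between sham and TAC in either sex, its part and that of the operation cannot be told apart.

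**Figure D2:**
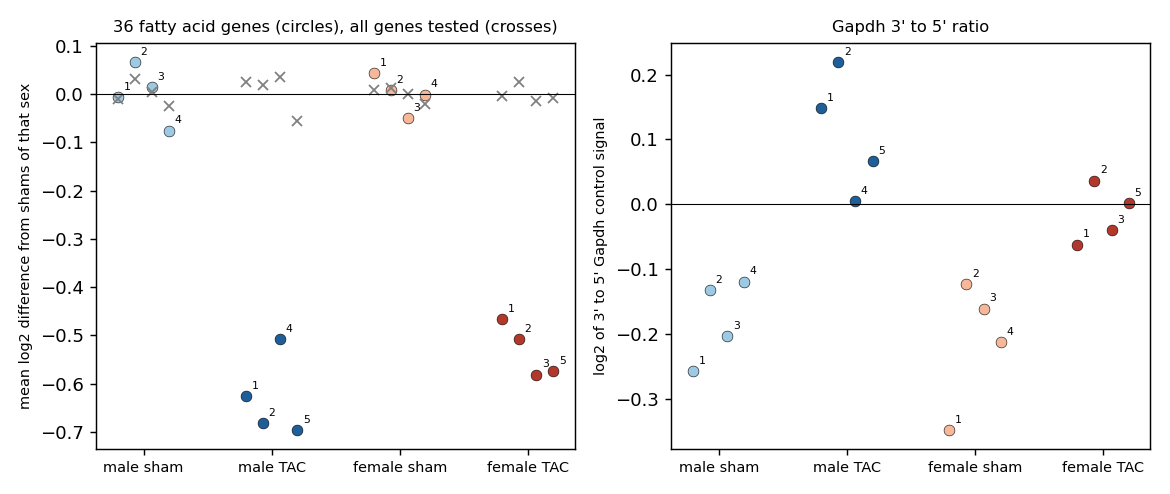
Left, for each array, the mean over the 36 genes of its log2(signal + 16) minus the mean of the shams of its sex (circles), with the same mean over all 8272 genes tested (crosses). Right, the log2 Gapdh control ratio, 3' over 5', of the same arrays; numbers beside points are replicate numbers. TAC arrays lay between -0.70 and -0.47 on the left and sham arrays between -0.08 and 0.07, while all-gene means stayed between -0.06 and 0.04.

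Every TAC array took part in the fall. The mean difference from the shams of its sex over the 36 genes was -0.62, -0.68, -0.51 and -0.70 on male TAC 1, 2, 4 and 5, and -0.47, -0.51, -0.58 and -0.57 on female TAC 1, 2, 3 and 5. Between 30 and 35 of the 36 genes lay below the sham mean on each TAC array. On male TAC 2 and male TAC 5 the fall was deepest. Male TAC 4 was nearest to the shams among males, as was female TAC 1 among females.

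At the uptake step, the fatty acid translocase Cd36 and the transport protein Slc27a1 (FATP1) fell in both sexes. Cd36 in males read 10615, 13079, 9674 and 11189 on sham arrays and 8361, 8126, 6776 and 7073 on TAC arrays. Female Cd36 signals were 10471, 9805, 9985 and 9919 in shams and 7271, 8145, 7073 and 7234 with TAC. Sham and TAC arrays did not overlap in either sex, and Cd36 fell 1.46-fold in males (log2 difference -0.55 ± 0.10 SE, limma adjusted p = 0.000577) and 1.35-fold in females (-0.44 ± 0.10, adjusted p = 0.00471). Fold changes throughout are 2 to the power of the difference on the log2(signal + 16) scale. Both other probe sets of Cd36 gave larger differences: one changed by -1.27 in males and -0.98 in females, the other by -0.79 and -0.54. Their adjusted p ran from 1.47e-07 to 0.0111.

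Slc27a1 in males read 832, 1001, 909 and 836 in shams and 538, 616, 532 and 544 after TAC, without overlap. Female Slc27a1 signals were 847, 540.2, 828 and 1028 in shams and 478, 517, 582 and 561 after TAC, where the lowest sham lay within the TAC range. The log2 difference was -0.66 in males (adjusted p = 0.00611) and -0.55 in females (adjusted p = 0.0224). The female call ended without female TAC 1 or 2 or female sham 1, 3 or 4, where the adjusted p was 0.0512 to 0.0892.

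Lpl, the lipase that releases fatty acids from lipoproteins at the capillary wall, was brighter in shams than after TAC on average in both sexes. Male Lpl signals were 44589, 36068, 46104 and 46014 in shams and 34381, 33654, 35706 and 43792 after TAC, with overlap through male sham 2 and male TAC 5. In females Lpl read 51503, 46857, 43605 and 43938 against 34145, 28611, 37303 and 36669, without overlap. On this probe set Lpl did not pass in males (-0.23, 95% interval -0.45 to -0.00, adjusted p = 0.159), but did without male TAC 5 (-0.31, adjusted p = 0.0488). It fell by 0.45 in females (log2, adjusted p = 0.00716), a call that ended after quantile normalization (-0.11, adjusted p = 0.470) and median centring (-0.33, adjusted p = 0.0849). The other Lpl probe set, with mean signals in males of 16604 ± 1996 (sham) and 9690.2 ± 1638 (TAC, SD, n = 4), fell in both sexes (-0.78, adjusted p = 0.000106, and -0.71, adjusted p = 0.000352).

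The fatty acid binding proteins did not pass in either sex on their brightest probe sets. Fabp3, the heart form, had means of 37335 ± 2104 and 33302 ± 1514 in male sham and TAC arrays and 31790.0 ± 2237 and 28585 ± 2906 in female ones, with differences of -0.16 (95% interval -0.34 to 0.01) and -0.16 (-0.33 to 0.02). Fabp4, the form of adipocytes, endothelium and macrophages, did not pass in males (-0.27, adjusted p = 0.0825) or females (-0.20, adjusted p = 0.218) and fell averaged over the sexes (-0.23, adjusted p = 0.0208). Its 3 other tested probe sets gave averaged differences of -0.72, -0.13 and 0.07. The first of them fell in each sex, so the reading for Fabp4 depends on the probe set.

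Among lipid droplet genes, the droplet coat protein Plin5, the hormone-sensitive lipase Lipe and the carboxylesterase Ces1d fell in both sexes. Plin5 in males read 1311, 1704, 1602 and 1340.2 in shams and 995, 1022, 1018 and 988 after TAC. Female Plin5 signals were 1588, 1328, 1278 and 1609.5 and 787, 916, 847 and 905. Neither sex overlapped, and the log2 differences were -0.55 (adjusted p = 0.00292) in males and -0.73 (adjusted p = 0.000322) in females.

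Lipe cleaves diacylglycerol. Male Lipe signals were 664, 659, 623 and 667 in shams and 335, 406, 215 and 274 after TAC. In females Lipe read 623, 625, 453 and 529 in shams and 286, 323, 371 and 293 after TAC. TAC arrays lay below all shams in both sexes, with a 2.12-fold fall in males (-1.08 ± 0.18 SE, adjusted p = 0.000232) and a 1.71-fold fall in females (-0.77 ± 0.18, adjusted p = 0.00489). Lipe was 1 of the 7 genes that fell in both sexes with the Gapdh ratio as a covariate.

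On the brightest probe set of each gene, Ces1d had the largest difference of the set and the widest interval. Ucp3 was close to it (-1.62 and -1.40), and the second Ucp3 probe set, given below, differed by more. Male Ces1d signals were 874, 1412, 1074 and 934 in shams and 634, 316, 434 and 123 after TAC. In females Ces1d read 1374, 1299, 1629.8 and 1249 and 901, 1063, 173 and 308. The groups did not overlap, but the TAC animals of each sex were spread widely, and the differences were -1.65 (95% interval -2.58 to -0.72, adjusted p = 0.0132) and -1.49 (-2.42 to -0.57, adjusted p = 0.0274). The male call ended without male TAC 5 (-1.22, adjusted p = 0.0508). The female call ended without female TAC 3 (-1.03, adjusted p = 0.106) or 5, or female sham 1, 2 or 3 (adjusted p from 0.0501 to 0.0864). Both other Ces1d probe sets also fell averaged over the sexes (-1.46 and -1.43). Ces1d belongs to a family of close paralogs, and how the probes divide among them was not examined here.

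Dgat1 and Dgat2, unrelated enzymes that both add the last acyl chain to triglyceride, gave different readings in males. Dgat2 in males read 4672, 4911, 5082 and 4954 in shams and 3197, 2537, 3748 and 1962 after TAC, without overlap (-0.82, adjusted p = 0.00121). Female Dgat2 signals were 3425, 3643, 4030.2 and 3849.9 and 3920.1, 3777, 2798 and 2699.8, which overlapped (-0.20, 95% interval -0.53 to 0.13, adjusted p = 0.459). The second Dgat2 probe set, however, fell in both sexes (-0.88 and -0.67, adjusted p = 0.000844 and 0.00809). Dgat1 in males read 349, 445, 450.0 and 300.5 in shams and 387, 561, 526 and 497 after TAC. In females Dgat1 read 474, 461, 333 and 426 and 379.9, 434, 578 and 527. Dgat1 overlapped in both sexes and did not pass in either (0.35, 95% interval -0.03 to 0.73, and 0.17, -0.21 to 0.55). It was the member with the highest difference in males, and with median centring it rose averaged over the sexes (0.34, adjusted p = 0.0482). Pnpla2, the adipose triglyceride lipase that makes the first cut of triglyceride, went from a mean of 3763 ± 617 (sham) to 2543 ± 395 (TAC) in males and from 2610.2 ± 184 to 2478 ± 454 in females. It fell in males (-0.56, adjusted p = 0.00898) and did not pass in females (-0.09, -0.39 to 0.21).

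**Figure D3:**
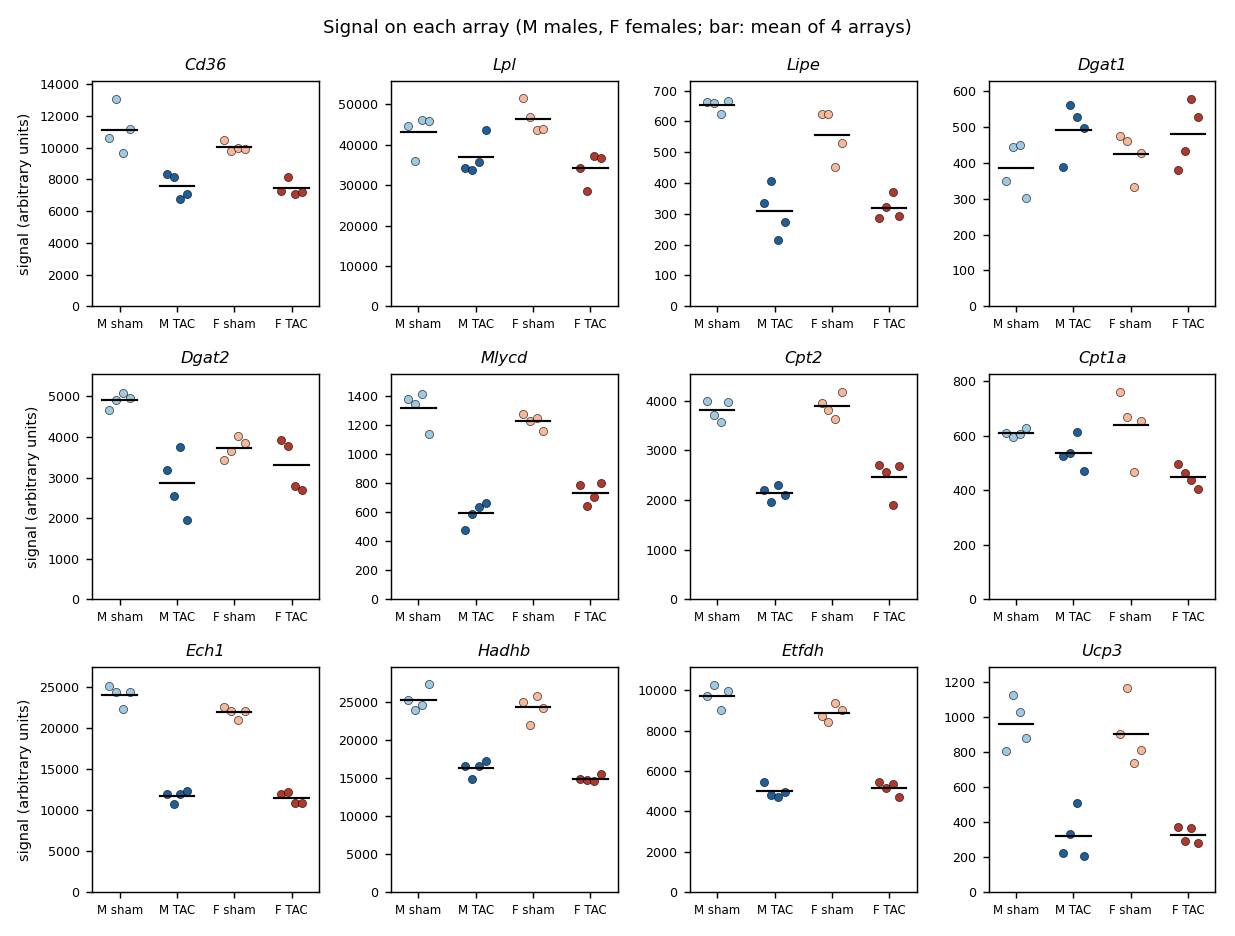
Signal on each of the 16 arrays (points, arbitrary units, linear axis from 0) for 12 of the genes, with 4 arrays per group and a bar at each group's mean. Sham and TAC points are apart in both sexes for Cd36, Lipe, Mlycd, Cpt2, Ech1, Hadhb, Etfdh and Ucp3, and overlap in both sexes for Dgat1 and Cpt1a.

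In the carnitine shuttle, Cpt1 enzymes on the outer mitochondrial membrane link the acyl chain to carnitine, the carrier Slc25a20 brings it in, and Cpt2 on the inner membrane returns it to coenzyme A. Cpt2 in males read 3997, 3708, 3567 and 3975 in shams and 2192, 1957, 2309.7 and 2090.1 after TAC. Female Cpt2 signals were 3942, 3805, 3627 and 4165 and 2696, 2562, 1889.5 and 2677. It fell 1.78-fold in males (-0.83 ± 0.11 SE, adjusted p = 3.33e-05) and 1.59-fold in females (-0.67 ± 0.11, adjusted p = 0.000383), with no overlap. A second, dimmer Cpt2 probe set did not pass (-0.34 and 0.01).

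Cpt1a is the liver form of the first enzyme. Male Cpt1a signals were 609, 596, 608 and 628 in shams and 524, 537, 614 and 472 after TAC. In females Cpt1a read 762, 670.1, 468 and 654 and 496, 462, 436 and 405. Groups overlapped in both sexes, with differences of -0.19 (95% interval -0.50 to 0.12, adjusted p = 0.44) and -0.47 (-0.78 to -0.16, adjusted p = 0.0355). The female call ended without female TAC 2, 3 or 5 or female sham 1, 2 or 4 (adjusted p from 0.0589 to 0.118). Cpt1b, the muscle form, was not measured by the rule, so the isoforms could not be compared.

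Slc25a20 read differently on its 2 probe sets. The brighter had means of 3237 ± 710.4 and 3046 ± 935 in male sham and TAC arrays and 2982 ± 265 and 3766 ± 532 in female ones, and did not pass (-0.11 and 0.33). The other read 2179, 2581, 2071 and 2180.2 in male shams and 1402, 1264, 1133 and 1078 after TAC, and fell in males (-0.88, adjusted p = 0.000252) and females (-0.47, adjusted p = 0.0321). Crat, which trades short acyl groups between carnitine and coenzyme A, fell in males (-0.60, adjusted p = 0.00275) and did not pass in females (-0.36, adjusted p = 0.0631), although it did without female sham 1 (-0.49, adjusted p = 0.0124). The male call ended with the mean of both Crat probe sets (-0.25, adjusted p = 0.22) and with the Gapdh or 18S covariate (adjusted p = 0.0781 and 0.0505). The second Crat probe set did not pass in males (0.09) or females (-0.20).

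Malonyl-CoA inhibits Cpt1, and both the enzyme that makes it at the mitochondrion, Acacb, and the one that breaks it down, Mlycd, fell. Mlycd in males read 1384, 1344, 1419 and 1139.7 in shams and 479, 591, 637 and 667 after TAC. Female Mlycd signals were 1275, 1228, 1250.1 and 1162 and 788, 642, 706 and 804. TAC arrays were lower by 2.2-fold in males (-1.14 ± 0.13 SE, adjusted p = 4.79e-06) and 1.66-fold in females (-0.73 ± 0.13, adjusted p = 0.000572). Acacb in males read 2989, 2904, 2902 and 2809 in shams and 1728, 1806, 2124 and 1534 after TAC. Female Acacb signals were 2522, 2406, 2579 and 2461 and 1962, 1655, 1744 and 1729.6. Neither gene overlapped between sham and TAC, and Acacb differed by -0.69 in males (adjusted p = 0.000101) and -0.49 in females (adjusted p = 0.00286).

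In β-oxidation 10 of 13 genes fell in both sexes. Ech1, a dienoyl-CoA isomerase for unsaturated chains, read 25232, 24445, 22345 and 24475 in male shams and 11958, 10712, 12022 and 12391 after TAC. Female Ech1 signals were 22673, 22103, 21036 and 22076 and 12008, 12207, 10943 and 10941. The animals of a group lay close together, and Ech1 fell 2.05-fold in males (-1.03 ± 0.08 SE, adjusted p = 1.28e-07) and 1.91-fold in females (-0.93 ± 0.08, adjusted p = 3.22e-07). It had the smallest p of the 36 genes in each sex and in the average.

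Hadha and Hadhb encode the subunits of the mitochondrial trifunctional protein, which carries out the last 3 reactions of each cycle on long chains. Hadhb in males read 25183, 23898, 24629 and 27267 in shams and 16580.5, 14842, 16502 and 17208 after TAC. Female Hadhb signals were 24991, 21961, 25811 and 24241 and 14841, 14759, 14585 and 15475. It fell 1.55-fold and 1.62-fold (adjusted p = 1.52e-05 and 9.18e-06) in males and females. Hadha fell as well, from 10034 ± 653 to 5229 ± 918 in males (-0.95, adjusted p = 1.9e-05) and from 9984 ± 1466 to 5479.7 ± 365 in females (-0.86, adjusted p = 8.75e-05). A second Hadhb probe set did not pass (-0.34 and 0.02).

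Both genes lie head to head on chromosome 5. In RefSeq's annotation of GRCm38.p6 their start sites, at 30154980 for Hadha on the minus strand and 30155253 for Hadhb on the plus strand, have 272 bases between them. The window of 250 bases before to 50 after the Hadhb start, chr5:30155003-30155302 on the plus strand, is printed because it also holds most of the Hadha window, and the 228 shared bases are in capitals.
Hadhb: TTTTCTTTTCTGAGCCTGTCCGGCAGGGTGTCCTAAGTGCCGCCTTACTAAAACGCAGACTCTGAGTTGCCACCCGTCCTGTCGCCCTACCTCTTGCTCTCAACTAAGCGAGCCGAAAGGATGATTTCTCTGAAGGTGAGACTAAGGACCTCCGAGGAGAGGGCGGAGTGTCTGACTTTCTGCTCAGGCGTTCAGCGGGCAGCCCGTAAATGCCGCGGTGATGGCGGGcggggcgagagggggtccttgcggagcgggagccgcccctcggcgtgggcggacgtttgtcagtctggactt
The arrays measure transcripts and do not show what this shared stretch does.

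Acaa2, the thiolase that ends the cycle, read 12610.2, 13586, 13854 and 12146 in male shams and 6699.5, 6140.3, 8849 and 6802 after TAC. Female Acaa2 signals were 15146, 12767, 13767 and 12158 and 7835, 6457, 5481 and 7808. All 3 Acaa2 probe sets fell in both sexes, this one by 0.88 and 0.97 (log2, adjusted p = 5.24e-05 and 3.18e-05), and the others gave -1.11 and -1.33 in males and -1.27 and -1.32 in females.

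The acyl-CoA dehydrogenases open the cycle and differ in the chain length they accept. The very-long-chain enzyme Acadvl fell in males and females (-0.52 and -0.45), as did the medium-chain enzyme Acadm (-0.91 and -0.68). Adjusted p for these 2 genes ran from 3.33e-05 to 0.00103. The long-chain enzyme Acadl fell in males (-0.48, adjusted p = 0.00712) and did not pass in females (-0.11, 95% interval -0.36 to 0.13). Its male call ended with the mean of both Acadl probe sets (-0.22, adjusted p = 0.297). The Gapdh and 18S covariates ended it too (adjusted p = 0.108 and 0.118). The second, dimmer Acadl probe set did not pass in either sex. The short-chain enzyme Acads passed in neither, although sham and TAC did not overlap in females. Its mean signals, sham then TAC, were 1811 ± 196 and 1798 ± 73.4 for males and 1787 ± 263 and 1491 ± 20.3 for females. The differences of Acads were -0.01 (95% interval -0.24 to 0.23) and -0.25 (-0.48 to -0.01), and it was the only 1 of the 13 β-oxidation genes that did not fall averaged over the sexes.

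The other β-oxidation enzymes differed by less than 2-fold, as did those above on their brightest probe sets, except Ech1 in males. The short-chain hydratase Echs1 differed by -0.68 in males and -0.64 in females. For unsaturated chains, the isomerase Eci1 gave -0.72 and -0.58 and the dienoyl-CoA reductase Decr1 -0.52 and -0.46. Adjusted p for these 3 genes ran from 2.07e-05 to 0.00153. The isomerase Eci2 fell in males (-0.67, adjusted p = 4.02e-05) and in females (-0.29, adjusted p = 0.0348), where the call ended without female TAC 1, 2 or 3 or female sham 2, 3 or 4 (adjusted p from 0.0557 to 0.0971). Hadh, the dehydrogenase for medium and short chains, fell on its brightest probe set in males (-0.33, adjusted p = 0.027), a call that ended without male TAC 4 or male sham 1, 2 or 4 (adjusted p from 0.0656 to 0.0908). It did not pass in females (-0.29, adjusted p = 0.0627) but did without female sham 1 (adjusted p = 0.0485). A second Hadh probe set fell in both sexes (-0.70 and -0.85, adjusted p = 0.000911 and 0.0002).

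All 3 electron transfer genes fell in both sexes. Etfdh, the oxidoreductase that hands electrons to ubiquinone, read 9703, 10256, 9041 and 9984 in male shams and 5452, 4833, 4727 and 4968 after TAC. Female Etfdh signals were 8746, 8439, 9364 and 9005 and 5471, 5172, 5364 and 4706. The gap between sham and TAC was wide against the spread, and Etfdh fell 1.95-fold in males (-0.96 ± 0.08 SE, adjusted p = 3.31e-07) and 1.72-fold in females (-0.78 ± 0.08, adjusted p = 5.61e-06).

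Etfa and Etfb, the subunits of the flavoprotein that feeds this enzyme, fell too. Etfa in males read 10703, 10017, 11342 and 10942 in shams and 8739.5, 7825, 9570.1 and 7792 after TAC. Female Etfa signals were 12225, 11215, 10596 and 9838 and 7957, 7528, 6799.8 and 6946. No overlap was seen in either sex, and the differences of Etfa were -0.35 (adjusted p = 0.0142) and -0.58 (adjusted p = 0.000291), the male call ending without male TAC 2 (adjusted p = 0.0509). Etfb differed by -0.33 and -0.52 (adjusted p = 0.0114 and 0.000376).

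Acyl-CoA thioesterases release fatty acids from coenzyme A, and Ucp3 is a mitochondrial inner membrane carrier known to follow fatty acid supply. Ucp3 in males read 802, 1122, 1025 and 879 in shams and 224, 330.0, 509 and 207 after TAC. Female Ucp3 signals were 901, 1164, 735 and 808 and 373, 292, 365 and 282. TAC arrays lay below all shams, a 3.07-fold fall in males (-1.62 ± 0.22 SE, adjusted p = 4.28e-05) and a 2.65-fold fall in females (-1.40 ± 0.22, adjusted p = 0.000252). The second Ucp3 probe set read 682, 815, 856 and 542 in male shams and 59.2, 43.9, 238 and 32.3 after TAC, and 670.2, 623, 413 and 559.5 in female shams and 38.0, 40.0, 35.4 and 35.5 after TAC. Of its TAC signals, 3 of 4 in males and 4 of 4 in females lay under 130.8, the limit of the filter on dim probe sets, so it passed that filter through the shams. With those signals set to the limit, it was at least 4.33-fold lower after TAC in males and at least 3.91-fold lower in females. No p-value is given for this probe set, since the filter kept it through the shams that a test would compare.

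Acot1 and Acot2 are close paralogs, cytosolic and mitochondrial, and a further probe set carries both symbols and was not used. How far each signal comes from the other paralog was not tested. Acot1 in males read 306, 306, 155 and 120.1 in shams and 161, 69.9, 150.5 and 50.4 after TAC. Female Acot1 signals were 272, 225, 130.2 and 224 and 159, 77.4, 88.1 and 96.1. Of the Acot1 signals after TAC, 69.9 and 50.4 in males and 77.4, 88.1 and 96.1 in females lay under 130.8, the limit of the filter on dim probe sets. So did 120.1 and 130.2 among the shams, and Acot1 passed that filter through the brighter sham arrays. Single animals varied widely and the groups overlapped, so that neither sex passed (-0.96, 95% interval -1.76 to -0.16, and -0.92, -1.72 to -0.12). The difference averaged over the sexes was -0.94. It was called, but the filter had kept this probe set through the shams, so the call enters the counts and is no support. Acot2 in males read 246, 212, 237 and 131 in shams and 71.5, 169.6, 211 and 238 after TAC. In females Acot2 read 222, 256, 285 and 235 and 173, 153, 251 and 154. Acot2 overlapped in both sexes and did not pass (-0.31, -0.95 to 0.32, and -0.44, -1.07 to 0.19). Its male difference was 0.02 without male TAC 1.

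Where a gene had several tested probe sets, they often disagreed in size. Of 15 such genes, all tested probe sets fell averaged over the sexes for 7 (Cd36, Lpl, Dgat2, Ces1d, Acaa2, Decr1 and Ucp3), and the calls differed between probe sets for the other 8 (Fabp4, Cpt1a, Cpt2, Slc25a20, Crat, Acadl, Hadhb and Hadh). For Ucp3 the dimmer probe set had passed the signal filter through the shams. No probe set of the 36 genes rose in either sex. With any tested probe set counted, a choice made after seeing the data, 30 genes fell in males and 28 in females, where 12.3% and 11% of all genes tested fell by this rule.

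**Figure D4:**
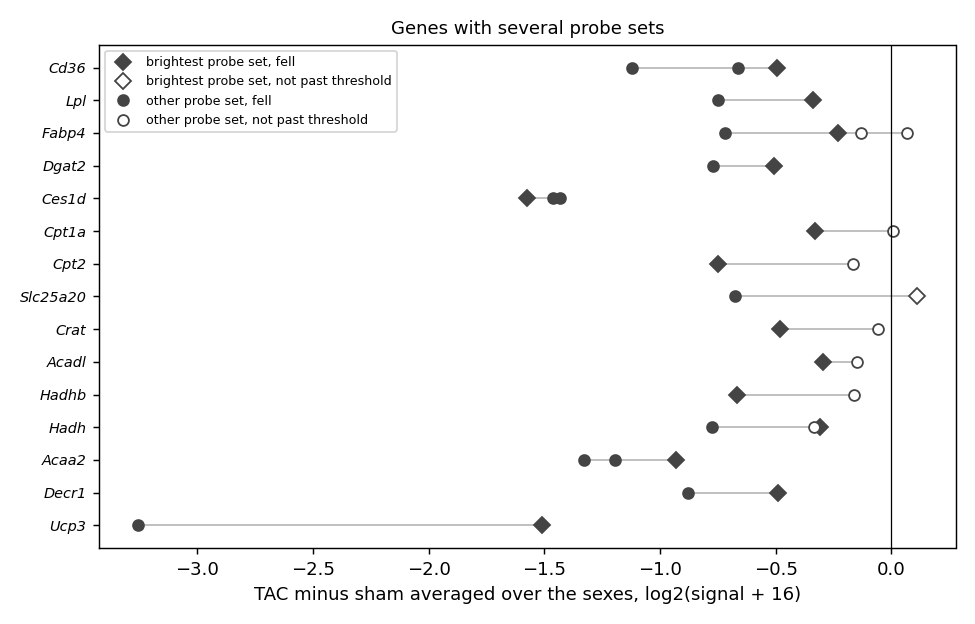
Averaged TAC minus sham difference (horizontal axis, log2(signal + 16) units) of every tested probe set of the 15 genes that have more than 1; diamonds mark the probe set of highest mean, circles the others, and filled symbols those with an adjusted p below 0.05. The points of Ces1d lie close together, between -1.57 and -1.43, while the circle of Ucp3, at -3.26, rests on TAC signals under the limit of the filter and depends on the pseudocount.

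No gene of the 36 passed the test of a difference in response between males and females. Female minus male differences of response ran from -0.29 to 0.62, with a median of 0.10, and the smallest adjusted p was 0.648. The limma fit called 0 of the 36 genes, and 0% of all genes tested. At an unadjusted p below 0.05 there were 5 of 36 genes (Pnpla2, Dgat2, Mlycd, Acadl and Eci2), where 6.42% of all genes lay, and in all 5 the fall was larger in males. Dgat2 had the largest of these differences (0.62, 95% interval 0.15 to 1.09, unadjusted p = 0.0123) and Eci2 the smallest p (0.38, 0.11 to 0.65, unadjusted p = 0.00879). For Ech1, measured most tightly, the interval of the difference was -0.13 to 0.33. From the estimate to either bound these intervals spanned 0.34 at the median, so smaller sex differences could not be resolved with 4 arrays per group. In 26 of 36 genes the male difference was the lower one and in 10 the female one. Over all genes tested, the female difference was the lower one in 4255 of 8272. The genes share the same arrays, so these counts are a description. With median centring the median of 0.10 became 0.16. Across the 36 genes the male and female differences had a Pearson r of 0.843, given as a description since the genes share the same arrays, and across all genes tested r was 0.636.

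No gene of the 36 passed in the comparison of the sexes among sham or among TAC hearts. Female against male, 0 of 36 genes passed in shams, where 0.314% of all genes did, and 0 of 36 passed after TAC (0.0363% of all genes). At an unadjusted p below 0.05 there were 7 of 36 in shams (10.8% of all genes) and 4 of 36 after TAC (6.2% of all genes). Pnpla2 had the largest sham difference (-0.51, adjusted p = 0.157), the female value being the lower.

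Some genes of the wider pathway outside the set fell as well. Of 83 such genes listed, 67 were tested, of which 19 fell and 2 rose in males (median -0.30) and 21 fell and 2 rose in females (median -0.26), where 7.77% and 6.69% of all genes tested fell. A single call in a list of 3 to 9 genes is given as a value only. Among other mitochondrial acyl-CoA enzymes 8 of 17 fell in males and 9 in females, among them Acat1, a thiolase of ketone and isoleucine breakdown (-0.66 and -0.77), and Pcca, a subunit of propionyl-CoA carboxylase (-0.53 and -0.57). Of 11 peroxisomal genes 2 fell in males and 5 in females, Abcd3 by 0.59 and 0.60 (log2). Of 12 genes of glycerolipid storage 3 fell in each sex, among them the droplet coat gene Plin2 (-0.65 and -0.60). Of 11 further uptake and activation genes, 3 fell and 1 rose in males and 2 fell and 1 rose in females. The lipoprotein receptor gene Vldlr fell (-0.59 and -0.36), and the one that rose was the binding protein gene Fabp5 (0.79 and 0.54, adjusted p = 0.00142 and 0.0242). Of 3 genes listed under ketone body use 1 fell and 1 rose in each sex. The one that fell, Acss1 (-0.49 and -0.46), encodes an acetyl-CoA synthetase, which acts on acetate and not on ketone bodies. The ketone body dehydrogenase gene Bdh1 rose (0.68 and 1.05, adjusted p = 0.0142 and 0.000612). Of 4 malonyl-CoA and AMPK genes Prkab1 fell in both sexes (-0.55 and -0.71). Of 9 transcriptional regulators 1 fell in males, the coactivator gene Ppargc1a (-0.57, adjusted p = 0.0338), and 0 in females.

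The promoter windows of the genes were searched for PPAR- and ERR-type sites. RefSeq windows of 300 bases (GRCm38.p6) were at hand for 30 of the 39 genes. The nuclear receptor hexamer AGGTCA was found on either strand in 8 of 30 (26.7%), against 18.1% of 27025 genes with such a window. The exact direct repeat AGGTCANAGGTCA and the extended form TCAAGGTCA, both of which contain the hexamer, were in 0 of 30, against 0.0481% and 0.466% of all genes. The genes with a hexamer were Acacb, Acadm, Acadvl, Cd36, Cpt1a, Echs1, Plin5 and Ucp3. Windows of 3 of them that fell in both sexes are shown, with the hexamer in capitals: Ucp3 (chr7:100472741-100473040, plus strand), which fell most among the 3 and holds 2 hexamers, Acadvl (chr11:70015379-70015678, minus strand) and Echs1 (chr7:140116372-140116671, minus strand).
Ucp3: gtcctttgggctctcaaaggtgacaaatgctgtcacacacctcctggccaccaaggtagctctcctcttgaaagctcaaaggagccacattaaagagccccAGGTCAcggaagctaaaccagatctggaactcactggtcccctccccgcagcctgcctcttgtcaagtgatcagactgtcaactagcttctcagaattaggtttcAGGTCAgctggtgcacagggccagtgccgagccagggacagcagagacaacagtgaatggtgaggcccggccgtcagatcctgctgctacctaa
Acadvl: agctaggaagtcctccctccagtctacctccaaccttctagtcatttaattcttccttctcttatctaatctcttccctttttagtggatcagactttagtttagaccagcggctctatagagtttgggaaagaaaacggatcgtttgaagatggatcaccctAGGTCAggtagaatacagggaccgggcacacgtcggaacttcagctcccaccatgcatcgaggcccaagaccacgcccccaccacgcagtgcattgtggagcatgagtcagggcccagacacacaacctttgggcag
Echs1: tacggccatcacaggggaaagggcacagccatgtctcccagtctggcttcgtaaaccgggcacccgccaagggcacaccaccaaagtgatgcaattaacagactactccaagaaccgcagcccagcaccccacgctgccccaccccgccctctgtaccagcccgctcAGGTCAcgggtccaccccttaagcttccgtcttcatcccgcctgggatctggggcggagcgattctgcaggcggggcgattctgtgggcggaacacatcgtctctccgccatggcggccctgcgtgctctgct
The hexamers of Ucp3 begin 149 and 44 bases before the start site, that of Acadvl 87 and that of Echs1 83. A match describes these letters and is not evidence of binding, and sites outside the windows were not searched.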

How the data were processed

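Left ventricular RNA of 16 mice was measured on 16 arrays, 4 in each of 4 groups; groups and replicate numbers were taken from the title codes and the descriptions in the labels. The design text names the array as an RAE 430A, while the platform annotation and its symbols are those of a mouse 430A array. The deposited values are 1 linear intensity per probe set and array, computed by the authors with GCOS, per the submitters' processing notes; its version and settings are not given in the sources used here. The authors' scaling was tested on the values: the mean intensity after trimming 2% of the probe sets at each end was 500.21 to 500.25 on all arrays, and the array medians were 189.7 to 222.3. The number of arrays limits the precision.

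The members, their steps and the 12 gene lists beside them were chosen with earlier results of these data known. Of 22690 probe sets, 64 controls were left out, and then those whose mean intensity lay in the lowest 40% (below 130.8), which left 13576 probe sets of 8272 genes. Of the probe sets without controls, 20380 had 1 gene symbol in the platform annotation, 691 several and 1555 none. Log2(signal + 16) was fitted with limma 3.58.1 in R 4.3.3 as 4 group means with an intensity trend over all probe sets, and p-values of each of 6 contrasts were adjusted by Benjamini-Hochberg over the 13576. A gene was read on its probe set of highest mean. The fit was tested on simulated data for the male comparison (13576 probe sets), where 17% of 100 changes of 0.5 log2 and 55% of 100 changes of 1 log2 were called and 5.26% of the calls were false. No other probe set was changed there, while the real male comparison called 2422. The adjusted threshold depends on the share of changed probe sets, so these rates do not carry over to the fit reported. Single values were compared with exact permutation tests.

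Every array is given for the 3 genes of each step (2 in small steps) with the smallest p averaged over the sexes and for the isoform pairs; at most 2 genes are named per list of the wider pathway. The lists of cell type markers are given by counts and sums, with some fibroblast and adipocyte markers named. Alternatives were quantile or median scaling between arrays, another pseudocount (1 or 64), a filter on the dimmest 60% or on none, a fit without the trend, with array weights, on the compared groups alone or with the replicate number as a block, the Gapdh ratio or the 18S signal as a covariate, the mean of a gene's probe sets, and each array left out in turn. Promoter windows came from RefSeq's GRCm38.p6. The labels name no batch.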

Additional observations from a re-analysis of the deposited data

Results flagged for a closer look

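In 7 of 144 groups of 4 arrays, 1 array of a gene lay further from the other 3 than Dixon's 95% limit allows; chance gives about 1 in 20 groups, and the 7 fell on 7 different arrays. Lpl, the lipoprotein lipase gene, read 36067.9 on male sham 2, below the 44589.1 to 46104.1 of the other male shams. The transport protein gene Slc27a1 read 616.4 on male TAC 2, above the 532.4 to 543.7 of the other male TAC arrays. The carnitine palmitoyltransferase gene Cpt2 read 1889.5 on female TAC 3 against 2561.6 to 2696.0 on the others of its group. The carnitine acetyltransferase gene Crat read 1279.8 on female TAC 5 against 1492.7 to 1506.7. The dehydrogenase gene Hadh read 17011.3 on male TAC 4 against 20122.9 to 20436.6. The dienoyl-CoA reductase gene Decr1 read 8863.5 on female sham 1 against 7467.3 to 7662.7, the only 1 of the 7 besides Slc27a1 that lay above its group. Etfb, a subunit of the electron transfer flavoprotein, read 11446.5 on female sham 4 against 12098.1 to 12221.8.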

How the results depend on the processing

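No gene of the 36 with a call changed sign under any alternative run. Of the 27 genes called in males, 8 kept their call under every alternative, as did 12 of 24 in females and 14 of 31 in the average. The count of falls moved by over 1.5 times only with the Gapdh ratio as a covariate, to 9 (males), 14 (females) and 15 (average of the sexes). Over all probe sets that fit called 398, 498 and 640, against 2422, 2045 and 3890 in the fit reported, and the 18S covariate called 1000 in males and 1917 in the average. Under the other alternatives 23 to 30 genes fell in males, 20 to 28 in females and 27 to 32 in the average. With each array left out in turn these counts were 26 to 27, 21 to 23 and 31 to 32. With median centring 1 gene rose in the average, Dgat1. With the replicate number as a block (replicate block), 27, 20 and 29 genes fell. Same-numbered arrays had deviations correlated at -0.031 to 0.121. Arrays of unlike number were not compared in this way, so whether the number marks anything shared was not tested. Calls lost in the most alternatives were those of Cpt1a (14 of 21), Eci2 (12) and Slc27a1 (10) in females and Hadh (11) in males. The cause of these changes was not tested. For the difference in response between the sexes 0 of the 36 genes were called in any alternative; over all probe sets it was 0 in the fit reported and at most 11, without male TAC 5.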
